A study of Mus musculus with 4 samples.

Results

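Blood vessels carry a lining of endothelial cells, and the genes described here mark that lining in CD45-negative cells of mouse lymph nodes. They are 37 genes taken from knowledge of vascular biology, and their probes were found by the gene name the array files give, with the older names Esam1 for Esam, Agtrl1 for Aplnr and Ly6c for Ly6c1. Of the 37 genes, 36 were found, through 67 of the 41174 probes on the array, and all 36 were among the 21386 genes tested. Apold1 had no probe under its name and was not analysed here.

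The study set CD45-negative cells of the gut-draining mesenteric lymph node (mLN) against those of the peripheral lymph node (pLN). CD45 is carried by leukocytes, so its removal leaves mainly stromal and vascular cells. All cells came from wild-type C57BL/6NCrl mice. The labels state no age or sex, do not name the peripheral nodes and give no number of animals per sample. Nodes were digested with collagenase, the cells were separated with magnetic beads, and RNA of 2 experiments gave 2 mLN and 2 pLN arrays, hybridised with 1 dye. Mean stated purity was 97.4% for mLN and 97.5% for pLN. The share of probes well above background ranged between 74.0% and 81.1%. The experiments are described as independent, but separate animals are not stated, so the p-values measure only the spread between these samples, and the number of arrays limits their precision.

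Endothelial cells are held together by junction proteins such as VE-cadherin and claudin 5, and they grow and branch under vascular endothelial growth factor (VEGF), which acts through receptors on their surface. The angiopoietin ligands and their receptor Tie2 steady or loosen the vessel wall. Notch signalling between neighbouring cells separates arterial cells and the stalk of a sprout from the tip cell that leads it, and ETS and SOX transcription factors keep the endothelial programme on. In a lymph node, blood vessels bring in lymphocytes through high endothelial venules. Many of these genes are also expressed in lymphatic endothelium.

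Levels are given below as relative signal, the processed intensity of a gene's probe divided by the 75th percentile of its own array, so that 1 means as bright as that percentile. Probes differ in brightness for reasons other than RNA level, so a level is compared only with the same gene on another array. The sign of a log2 fold change is that of mLN over pLN. Each gene was read from its brightest entering probe.

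All 36 genes were well above background on all 4 arrays and none had a saturated spot, which includes the defining endothelial genes Cdh5, Pecam1, Kdr, Tie1, Esam and Egfl7. The labels name no endothelial sort, and these genes are read in the whole CD45-negative mixture. Of the 36, 33 had a log2 fold change below 0 and 3 had one above 0, beside 55.7% of all genes tested with a value below 0. Both mLN arrays lay below both pLN arrays for 26 of the 36 genes, beside 25.0% of all genes, and above both for 2, beside 20.6%. The median log2 fold change was −0.45, which is 1.37-fold lower in mLN, and over all genes the median was −0.03. In experiment 1 the median ratio was −0.33 and in experiment 2 it was −0.41.

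No single gene of the 36 passed the adjusted threshold of 0.05 (limma, Benjamini-Hochberg over 21386 genes), where 1.04% of all genes passed, 0.767% higher and 0.271% lower in mLN. At an unadjusted p below 0.05 there were 13 of the 36, all lower in mLN, beside 14.7% of all genes in either direction and 6.88% lower in mLN. The lowest adjusted p was 0.0917, for Angpt2, and the highest was 0.955, for Hey1. In bulk RNA, fewer endothelial cells and less RNA of these genes per cell cannot be told apart.

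**Figure D1:**
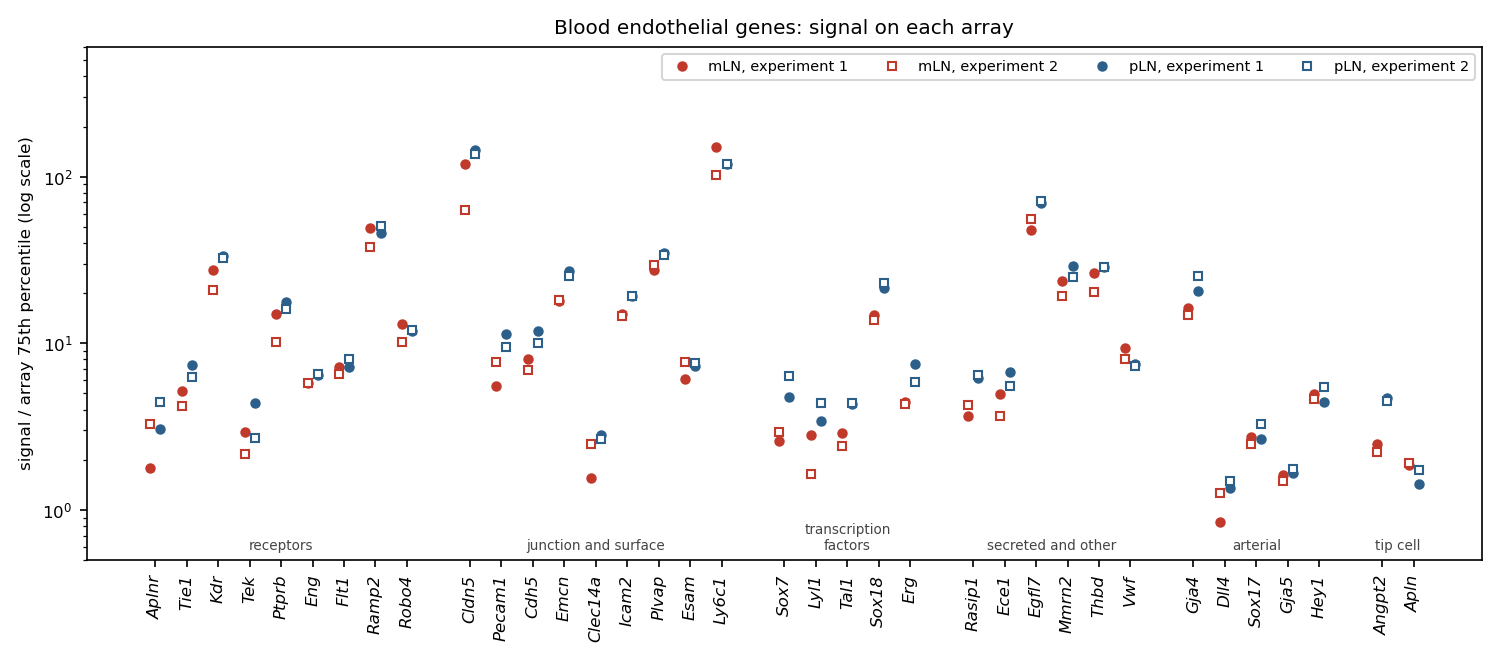
Relative signal (array signal over its 75th percentile, log scale) of the 36 blood endothelial genes on the 2 mLN arrays (red, left) and the 2 pLN arrays (blue, right), grouped by role, with circles for experiment 1 and open squares for experiment 2. Both red symbols lie below both blue ones for 26 genes and above them for Vwf and Apln; heights of different genes are not comparable.

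Receptors of the endothelial surface form the first pan-endothelial group, and all 9 had a log2 fold change below 0, beside 55.7% of all genes. Of the 9, 5 were lower in mLN without overlap between the nodes, beside 25.0% of all genes, and the median was −0.44. Tie1, an orphan receptor tyrosine kinase that pairs with Tie2, had a relative signal of 5.19 and 4.23 on the mLN arrays, against 7.45 and 6.28 on the pLN arrays. Both mLN arrays were lower, at −0.55 ± 0.19 log2 (standard error, 2 arrays a node throughout, limma adjusted p = 0.301). Aplnr, the apelin receptor of veins and capillaries, had 1.78 and 3.26 in mLN and 3.06 and 4.47 in pLN. Here the nodes overlapped, since mLN of experiment 2 was brighter than pLN of experiment 1 (−0.62 ± 0.37, limma adjusted p = 0.56). A second, dimmer Aplnr probe gave −0.20, also with overlap.

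The VEGF receptors stood at −0.46 ± 0.19 for Kdr, the main signalling receptor, and at −0.16 ± 0.15 for Flt1, which binds VEGF as a decoy (limma adjusted p = 0.4 and 0.734). Flt1 had 7.16 and 6.54 in mLN against 7.19 and 8.1 in pLN, and was read by 5 entering probes, all with negative values, from −0.74 to −0.16. Tek, which encodes Tie2, had −0.45 ± 0.31, and Ptprb, the phosphatase that restrains Tie2, had −0.44 ± 0.23. Single arrays moved these values widely: with 1 array left out Kdr lay between −0.66 and −0.25, Tek between −0.80 and −0.10 and Ptprb between −0.72 and −0.17. Smaller values were found for the TGF-beta co-receptor Eng (−0.18 ± 0.13), for Ramp2, a partner of the adrenomedullin receptor (−0.16 ± 0.19), and for the guidance receptor Robo4 (−0.06 ± 0.18). Ramp2 gave 49.4 and 37.9 in mLN against 45.7 and 50.7 in pLN, and Robo4 gave 13.1 and 10.2 in mLN against 11.9 and 12.1 in pLN. In both genes the nodes overlapped.

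Junction and surface genes followed, 8 of 9 with a value below 0, beside 55.7% of all genes, and a median of −0.47. Emcn, a sialomucin of veins and capillaries, had 18.0 and 18.1 in mLN against 27.0 and 25.4 in pLN. Replicates lay close together and the nodes did not overlap, at −0.54 ± 0.14 (limma adjusted p = 0.193). Cdh5, which encodes VE-cadherin, had 8.00 and 6.93 in mLN against 11.9 and 10.1 in pLN, and its log2 fold change was −0.55 ± 0.17 (adjusted p = 0.26). Its second probe gave −0.77. Pecam1, the adhesion molecule CD31, had 5.52 and 7.68 in mLN against 11.3 and 9.53 in pLN, with no overlap (−0.67 ± 0.22, adjusted p = 0.296).

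Cldn5, the main claudin of endothelial tight junctions, had 119 and 62.8 in mLN and 144 and 137 in pLN. Both mLN arrays were lower, but most of the difference came from the array of experiment 2, and the value moved between −1.16 and −0.24 when 1 array was left out (−0.70 ± 0.34, adjusted p = 0.465). Icam2, an adhesion molecule of resting endothelium, had 14.9 and 14.6 in mLN and 19.1 and 19.2 in pLN (−0.38 ± 0.13, adjusted p = 0.317). The nodes separated with little spread within each. Clec14a, a C-type lectin of vessels, had −0.47 ± 0.26, Plvap, which forms the diaphragms of fenestrae, −0.26 ± 0.14, and the adhesion molecule Esam −0.12 ± 0.17. Esam had 6.12 and 7.68 in mLN and 7.34 and 7.61 in pLN, which overlapped. With 1 array left out Clec14a lay between −0.80 and −0.14. A second, dimmer Clec14a probe gave −0.16, and its nodes overlapped, with ratios of −0.55 in experiment 1 and 0.24 in experiment 2.

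Ly6c1, a surface antigen of capillary endothelium, was the exception in this group, with 151 and 103 in mLN and 119 and 119 in pLN. The mLN arrays lay on either side of the pLN arrays (0.07 ± 0.23, adjusted p = 0.945). Its probes carry the older name Ly6c, which does not separate it from its near-identical neighbour Ly6c2, and the second probe gave −0.07. On mm8 the brighter probe is placed at chr15:74935462-74935520 and the second at chr15:74872537-74872596. Which of the neighbours each probe reads was not tested, so the value of 0.07 may not be that of Ly6c1.

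All 5 transcription factor genes were lower on both mLN arrays than on both pLN arrays, beside 25.0% of all genes. Their median was −0.72. Sox7, one of the SOXF factors that specify endothelium, had 2.60 and 2.92 in mLN against 4.74 and 6.35 in pLN, a log2 fold change of −0.99 ± 0.20 (limma adjusted p = 0.139), or 1.99-fold lower. Its second probe gave −0.65, but its nodes overlapped, with ratios of 0.05 in experiment 1 and −1.35 in experiment 2. Sox18, a second SOXF gene that also starts the lymphatic programme, had 14.7 and 13.8 in mLN against 21.4 and 23.0 in pLN (−0.64 ± 0.14, adjusted p = 0.155). In both genes the gap between the nodes was wider than the gap within either of them.

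Erg, an ETS factor that maintains endothelial junctions, had 4.46 and 4.32 in mLN and 7.5 and 5.89 in pLN (−0.60 ± 0.18, adjusted p = 0.248). A second, much dimmer Erg probe gave −0.87, but its nodes overlapped, with ratios of −0.03 in experiment 1 and −1.70 in experiment 2. Tal1, a helix-loop-helix factor of blood and vessel precursors, had 2.88 and 2.42 in mLN and 4.33 and 4.36 in pLN (−0.72 ± 0.16, adjusted p = 0.153). Its relative Lyl1 had 2.81 and 1.64 in mLN against 3.40 and 4.38 in pLN (−0.84 ± 0.32, adjusted p = 0.35). On the brightest probe the nodes did not overlap for any of these genes, though the Lyl1 ratio was −0.27 in experiment 1 and −1.41 in experiment 2. Tal1 and Lyl1 are also read in red cell precursors, and all 7 erythroid genes tested had values below 0, with a median of −0.49, though none passed and 2 overlapped between nodes. The list summed to a relative signal of 387 and 395 in mLN against 440 and 443 in pLN, nearly all of it from the globin gene Hba-a1 (−0.12), and without that gene to 12 and 8.25 in mLN against 35.2 and 20.5 in pLN. Nearly all of that remainder was Alas2, the first enzyme of erythroid haem synthesis. It had 11.4 and 7.78 in mLN against 33.7 and 19.8 in pLN (−1.45 ± 0.35, adjusted p = 0.178). The part of red cell precursors in the Tal1 and Lyl1 values was not tested.

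Among secreted, matrix and other genes, 5 of 6 had no overlap and values below 0, beside 25.0% of all genes, and the median was −0.39. Rasip1, a Ras-interacting protein needed for vessels to open a lumen, had 3.67 and 4.24 in mLN against 6.23 and 6.41 in pLN (−0.68 ± 0.15, limma adjusted p = 0.157). A second, dimmer Rasip1 probe went the other way, with 0.126 and 0.137 in mLN and 0.0547 and 0.0499 in pLN, a difference of 1.33. The 2 probes are shown because they disagree. On mm8, the build of the array files, the brighter is placed at chr7:45506806-45506865 on the forward strand and the dimmer at chr7:45504316-45504375 on the reverse strand, so they lie on opposite strands of the same gene region.
Rasip1 brighter probe: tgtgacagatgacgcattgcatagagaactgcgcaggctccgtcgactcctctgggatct
Rasip1 dimmer probe: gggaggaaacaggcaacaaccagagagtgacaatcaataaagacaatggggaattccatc

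Egfl7, a secreted protein of the vessel matrix, had 47.7 and 56.0 in mLN against 69.9 and 71.1 in pLN (−0.45 ± 0.15, adjusted p = 0.307). Ece1, which activates endothelin, had 4.97 and 3.64 in mLN and 6.77 and 5.51 in pLN (−0.52 ± 0.22, adjusted p = 0.411). In both genes the mLN arrays were the lower ones. Mmrn2, a matrix ligand of Clec14a, had −0.34 ± 0.18, and Thbd, the anticoagulant receptor thrombomodulin, had −0.31 ± 0.18. Thbd gave 26.3 and 20.2 in mLN and 28.7 and 28.6 in pLN, without overlap.

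Vwf, which encodes the clotting protein von Willebrand factor and is strongest in veins, was brighter in mLN on both arrays, with 9.35 and 8.02 against 7.48 and 7.31 in pLN. The log2 fold change was 0.23 ± 0.15 (limma adjusted p = 0.604), its second entering probe gave 0.18, and with the normexp background the sign turned to −0.09. Vwf is also read in platelets and their precursors, whose marker list had a median of −0.34 over 9 genes, with 7 below 0 and sums of 4.91 and 6.30 in mLN against 9.70 and 9.57 in pLN. No gene of that list passed, and its part in the Vwf value was not tested.

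**Figure D2:**
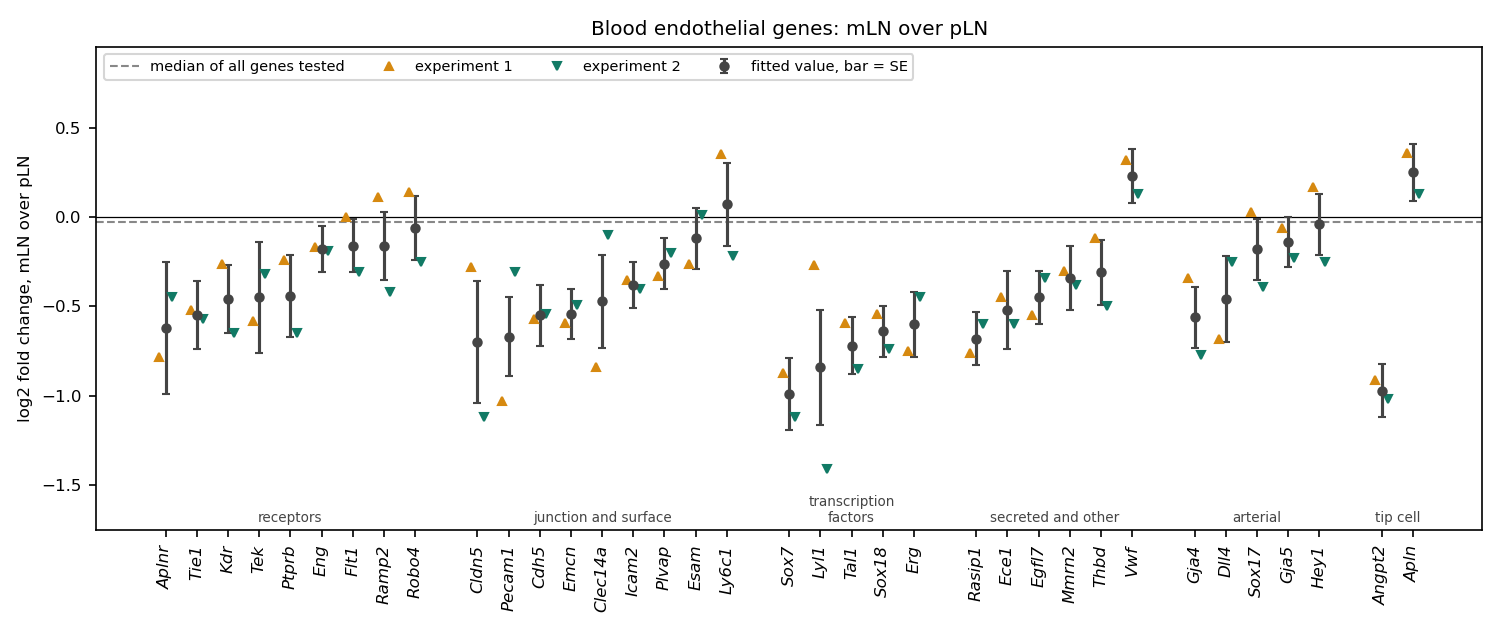
Log2 fold change of mLN over pLN for each of the 36 genes (dark points, bars are standard errors of the limma fit), with the ratio within experiment 1 (orange, up) and within experiment 2 (green, down), and the median of all genes as a dashed line at −0.03. All 5 transcription factors lie between −0.99 and −0.60, while Vwf and Apln lie above 0 in both experiments.

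Arterial genes were set apart: Dll4, Gja4, Gja5, Hey1 and Sox17. All 5 had a value below 0, beside 55.7% of all genes, and 3 had one without overlap between nodes, beside 25.0%. The median was −0.18. Gja4, which encodes the gap junction protein connexin 37, had 16.2 and 14.8 in mLN against 20.5 and 25.3 in pLN (−0.56 ± 0.17, limma adjusted p = 0.267). Dll4, the Notch ligand of arteries and tip cells, had 0.845 and 1.26 in mLN against 1.35 and 1.5 in pLN (−0.46 ± 0.24, adjusted p = 0.492). Both genes were lower on each mLN array than on each pLN array, and Dll4 lay between −0.75 and −0.18 with 1 array left out.

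The other arterial genes lay closer to 0. Gja5, which encodes connexin 40, had 1.61 and 1.5 in mLN and 1.67 and 1.76 in pLN (−0.14 ± 0.14, adjusted p = 0.733). The 4 entering probes under its name gave −0.16 to 0.19, and the positive value came from the second brightest of them. On mm8 the dimmest (−0.07) is placed at chr3:98497154-98497213, far from the brightest at chr3:97138831-97138890. Whether the dimmest reads Gja5 was not tested. Sox17, the SOXF factor of arteries, had 2.74 and 2.49 in mLN and 2.68 and 3.27 in pLN, which overlapped (−0.18 ± 0.17, adjusted p = 0.729). Hey1, a Notch target, had 4.97 and 4.63 in mLN against 4.43 and 5.49 in pLN, which also overlapped (−0.04 ± 0.17, adjusted p = 0.955).

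The tip cell genes, Angpt2 and Apln, differed in sign, and the median of this set is only the midpoint of their 2 values. Dll4 and Kdr are also tip cell genes, but were counted in other sets, and both had −0.46. Angpt2, the angiopoietin that loosens vessels for sprouting, had 2.50 and 2.22 in mLN against 4.71 and 4.51 in pLN. Replicates lay close together, every mLN array was below every pLN array, and the log2 fold change was −0.97 ± 0.15 (limma adjusted p = 0.0917), or 1.95-fold lower in mLN. With 1 array left out it stayed between −1.05 and −0.88. It passed only when the variance was fitted with an intensity trend (adjusted p = 0.0341), as 1 of 434 genes then called.

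Apln, the apelin peptide ligand of tip cells, had 1.85 and 1.90 in mLN against 1.44 and 1.73 in pLN, so that mLN was higher in both experiments (0.25 ± 0.16, adjusted p = 0.591). A second entering probe gave 0.24, and its remaining probe was well above background on only 1 array of each node. Its receptor Aplnr had the negative value given above. The pan-endothelial set is every one of the 36 genes outside the arterial and tip cell sets. It takes in genes described above as venous or capillary, such as Aplnr, Emcn and Vwf. The difference between Apln and the other endothelial genes was read by centring each array on the median of its 29 pan-endothelial genes before the same fit. On that scale Apln had 0.65 ± 0.27 and Angpt2 −0.56 ± 0.24, and neither passed (limma adjusted p = 0.194 and 0.213). The 5 arterial genes had a median of 0.23 there, from −0.15 for Gja4 to 0.36 for Hey1, with adjusted p from 0.374 to 0.888, so no arterial gene was shown to depart from the pan-endothelial genes.

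**Figure D3:**
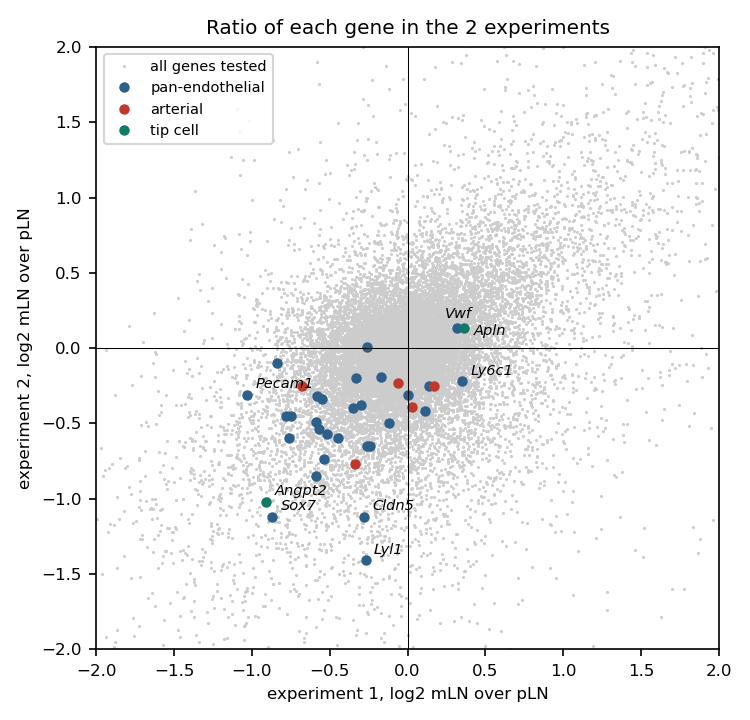
Log2 ratio of mLN over pLN in experiment 1 (horizontal) and experiment 2 (vertical) for all genes tested (grey, those beyond the axis limits not drawn), with pan-endothelial (blue), arterial (red) and tip cell (green) genes on top. Of the 36 genes, 28 lie in the lower left, below 0 in both experiments, where 34.9% of all genes lie, and Vwf and Apln lie together in the upper right.

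Promoter windows from RefSeq on GRCm38.p6, of 300 bases with 250 before and 50 after a gene's start, matched 21 of the 37 genes with 30 windows. They were searched for AGGAAG, a form of the core that ETS factors such as Erg bind, on both strands. It was in 13 of the 30 windows (43.3%), beside 35.4% of all 32851 windows. Among measured genes with a window, 8 of 16 whose mLN arrays both lay below the pLN arrays held it, and so did 3 of 4 of the rest. A GATA-type motif, AGATAA, was in 3 of the 30 windows, beside 11.2% of all windows. It was found for Erg, Tal1 and Tek. A match describes the letters and is no evidence that a factor binds.

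Windows are printed for the 4 genes with 1 window each, no overlap between nodes and the smallest p, which are Rasip1, Emcn, Gja4 and Tie1, and for 2 genes that were not lower on both mLN arrays, Robo4 and Apln, so that they can be set side by side. They lie at chr7:45627287-45627586 (forward strand), chr3:137340828-137341127 (forward), chr4:127313990-127314289 (reverse), chr4:118489800-118490099 (reverse), chr9:37401722-37402021 (forward) and chrX:48034804-48035103 (reverse). Capitals mark AGGAAG read on either strand, and the Gja4 window holds none.
Rasip1: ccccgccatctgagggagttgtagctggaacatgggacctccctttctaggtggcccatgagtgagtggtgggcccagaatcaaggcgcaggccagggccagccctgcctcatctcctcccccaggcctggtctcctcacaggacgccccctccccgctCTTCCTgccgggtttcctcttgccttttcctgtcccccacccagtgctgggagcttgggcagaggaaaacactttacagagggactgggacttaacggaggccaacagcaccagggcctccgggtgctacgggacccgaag
Emcn: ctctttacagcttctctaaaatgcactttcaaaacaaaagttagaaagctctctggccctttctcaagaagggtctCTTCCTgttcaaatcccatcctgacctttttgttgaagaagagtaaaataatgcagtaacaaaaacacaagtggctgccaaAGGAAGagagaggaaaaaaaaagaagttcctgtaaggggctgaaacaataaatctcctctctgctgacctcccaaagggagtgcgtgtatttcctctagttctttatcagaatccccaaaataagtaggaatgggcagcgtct
Gja4: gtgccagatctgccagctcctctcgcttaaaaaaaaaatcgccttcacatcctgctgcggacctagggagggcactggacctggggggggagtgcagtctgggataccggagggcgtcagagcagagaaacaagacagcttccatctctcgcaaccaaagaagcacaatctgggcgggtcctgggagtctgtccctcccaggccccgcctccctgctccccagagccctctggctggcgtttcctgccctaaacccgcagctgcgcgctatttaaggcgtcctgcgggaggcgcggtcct
Tie1: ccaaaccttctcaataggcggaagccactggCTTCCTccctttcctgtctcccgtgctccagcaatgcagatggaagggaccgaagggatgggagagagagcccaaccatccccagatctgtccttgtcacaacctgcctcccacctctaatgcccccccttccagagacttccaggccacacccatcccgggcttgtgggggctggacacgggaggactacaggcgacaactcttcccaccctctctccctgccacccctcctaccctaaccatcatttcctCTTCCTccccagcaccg
Robo4: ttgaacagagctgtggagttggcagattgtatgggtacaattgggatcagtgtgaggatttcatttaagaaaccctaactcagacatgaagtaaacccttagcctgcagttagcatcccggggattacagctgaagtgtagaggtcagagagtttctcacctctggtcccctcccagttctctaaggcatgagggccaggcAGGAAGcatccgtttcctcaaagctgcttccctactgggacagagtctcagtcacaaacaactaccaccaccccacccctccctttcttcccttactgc
Apln: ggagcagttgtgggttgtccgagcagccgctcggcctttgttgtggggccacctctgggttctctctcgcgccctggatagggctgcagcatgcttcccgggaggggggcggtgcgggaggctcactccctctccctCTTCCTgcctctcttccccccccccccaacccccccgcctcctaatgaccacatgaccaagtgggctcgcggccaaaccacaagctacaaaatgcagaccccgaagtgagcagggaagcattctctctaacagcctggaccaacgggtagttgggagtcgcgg

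Other genes of the same pathways were read from 6 lists of 78 genes, 75 of them tested. Of these, 1 passed higher in mLN and none lower, and 20 had an unadjusted p below 0.05, 17 of them lower in mLN, beside 1.04% of all genes passing, 14.7% with such a p and 6.88% with one lower in mLN. The gene that passed was Vegfd, a ligand of the VEGF family, with 2.78 and 2.67 in mLN against 0.863 and 0.947 in pLN. It was 3.01-fold higher in mLN, with no overlap (1.59 ± 0.14, limma adjusted p = 0.0306). It did not pass with the normexp background, without a filter on dim probes or with any 1 array left out (adjusted p = 0.0745 to 0.689). The median of the 7 VEGF ligands and co-receptors was 0.24, and Vegfa, the main ligand of Kdr, had −0.41 ± 0.53 (adjusted p = 0.811).

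Genes of Notch signalling and of the arterial and venous fates had a median of −0.47 over 16 genes, 10 of them lower in mLN without overlap and 2 higher, beside 25.0% and 20.6% of all genes. Of the 5 above 0, the Notch target Hey2 had 0.323 and 0.556 in mLN against 0.212 and 0.294 in pLN (0.76 ± 0.34, limma adjusted p = 0.42). Efnb2, the ephrin of arterial cells, had 5.97 and 4.92 in mLN against 13.8 and 10.6 in pLN, at −1.16 ± 0.21 (limma adjusted p = 0.117). Bmx, a cytosolic tyrosine kinase of arterial endothelium, had 0.637 and 0.346 in mLN and 1.57 and 0.887 in pLN (−1.33 ± 0.43, adjusted p = 0.283). In both, all mLN arrays were the lower ones. The receptor Notch1 had −0.67 ± 0.18 and Ephb4, the venous receptor of Efnb2, had −0.54 ± 0.13, while the venous factor Nr2f2 had 0.14 ± 0.16.

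Endothelial transcription factors outside the 37 had a median of −0.39 over 17 genes, 11 lower without overlap and 2 higher, beside the same 25.0% and 20.6% of all genes. Foxf2, a forkhead gene of mesenchyme and pericytes, had the highest value, with 0.131 and 0.224 in mLN against 0.0285 and 0.0438 in pLN (2.28 ± 0.36, limma adjusted p = 0.101), and passed when experiments were blocked (adjusted p = 0.0256). The BMP regulator Bmper, a secreted protein, had 2.26 and 2.19 in mLN and 1.42 and 0.803 in pLN (1.06 ± 0.31, adjusted p = 0.239). Both genes were brighter on each mLN array. Sele, the E-selectin gene of activated endothelium, had 0.105 and 0.452 in mLN and 0.366 and 0.777 in pLN, which overlapped (−1.29 ± 0.81, adjusted p = 0.579).

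**Figure D4:**
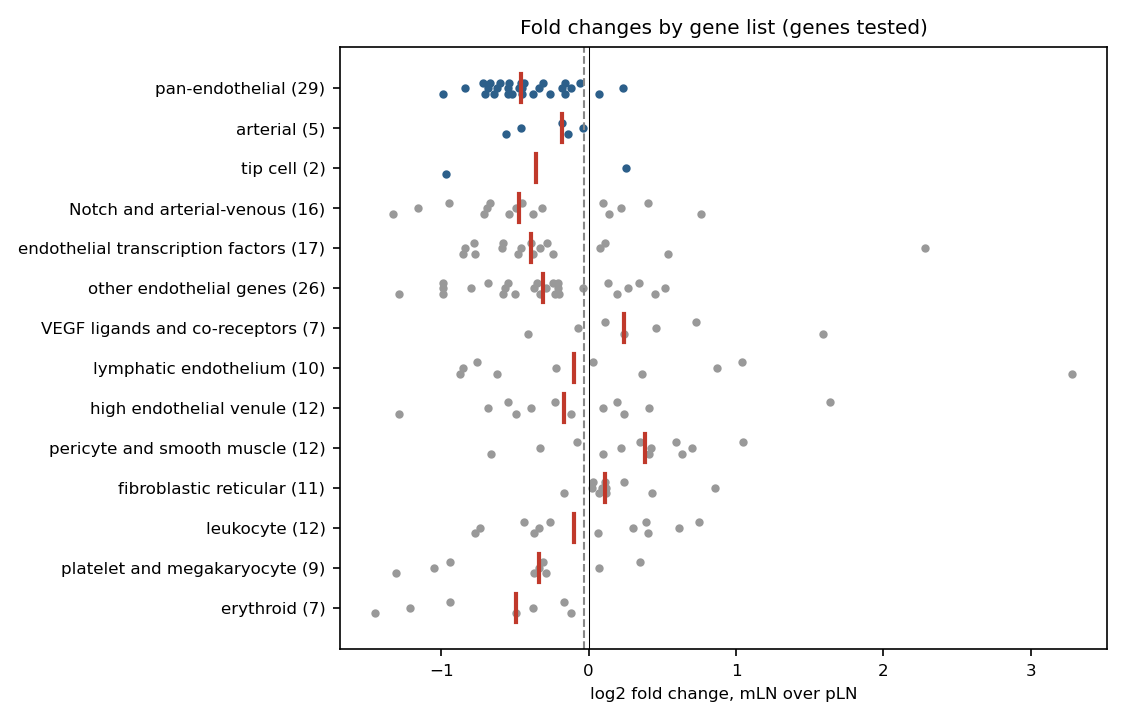
Log2 fold change of mLN over pLN for each tested gene of the pan-endothelial, arterial and tip cell sets (blue) and of pathway and cell marker lists (grey), with the number of genes in brackets, list medians as red bars and the median of all genes dashed. The pan-endothelial median is −0.46. The pericyte and smooth muscle median is 0.38 (range −0.66 to 1.05), and the lymphatic median is −0.10 (range −0.87 to 3.28).

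Markers of other cells were read in the same RNA, and no marker gene passed lower in mLN. A list's sum is carried by its brightest probes. Pericyte and smooth muscle genes had a median of 0.38, with 9 of 12 above 0. Their sums were 197 and 211 in mLN against 129 and 160 in pLN, most of it from Acta2 (0.59) and Tagln (0.70). The 3 below 0 were Rgs5 (−0.66 ± 0.23), Mcam (−0.33) and Pdgfrb (−0.08). Without overlap, 2 genes of the list, Rgs5 and Mcam, were lower in mLN and 5 were higher, beside 25.0% and 20.6% of all genes. Lymphatic endothelial genes had a median of −0.10 over 10 genes, 5 on each side of 0. Those below 0 were Mmrn1 (−0.87), Prox1 (−0.85), Stab2 (−0.76), Flt4 (−0.62) and Fgl2 (−0.22). Those above 0 were Marco (3.28), Lyve1 (1.04), Reln (0.87), Ccl21c (0.36) and Pdpn (0.03), of which Pdpn is also in the fibroblastic reticular list. The sums of the lymphatic list were 360 and 406 in mLN and 251 and 303 in pLN. Ccl21c made up 235 and 313 of these in mLN and 183 and 246 in pLN. Most of the rest in mLN was Marco (56.5 and 50.1) and Lyve1 (28.7 and 23). In pLN Marco had 5.27 and 5.67 and Lyve1 12.6 and 12.3. There the brightest of the rest was Mmrn1, with 29.7 and 20.8 against 20.6 and 9.01 in mLN. Marco, a scavenger receptor, was the 1 lymphatic list gene that passed, 9.74-fold higher in mLN (3.28 ± 0.15, limma adjusted p = 0.0108, and 0.689 with normexp and 0.0983 and 0.109 without a pLN array), while Prox1, the lymphatic master factor, had −0.85 ± 0.25 (adjusted p = 0.247). High endothelial venule genes had a median of −0.17 over 12 genes, 7 of them below 0, and their sums overlapped, with 266 and 497 in mLN and 379 and 453 in pLN. For the pan-endothelial genes the sums were 623 and 490 in mLN against 704 and 692 in pLN.

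Fibroblastic reticular genes had a median of 0.11, with 10 of 11 above 0 and sums of 1043 and 1197 in mLN against 900 and 1047 in pLN. Leukocyte genes had a median of −0.10, 6 of 12 on each side of 0, with sums of 10.1 and 9.05 in mLN against 16.3 and 10.5 in pLN. Without its brightest gene, Lyz2, that list summed to 4.84 and 5.66 in mLN against 6.68 and 5.31 in pLN, which overlapped. In the mesothelium list 6 of 9 genes passed higher in mLN, with sums of 47.4 and 34.6 against 9.78 and 11.8 in pLN, where Wt1 and Bnc1 were not well above background on either array. All 9 pancreatic acinar genes had values above 0 and none passed, though 5 did when experiments were blocked, with sums of 1048 and 416 in mLN and 22.9 and 1.57 in pLN. Immediate early genes, which tissue digestion can induce, had a median of −0.22 over 12 genes, 10 below 0, and sums of 262 and 526 in mLN against 305 and 582 in pLN. The part of these cells and states in the endothelial values was not tested.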

How the data were processed

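RNA of CD45-negative cells was read on 4 Agilent 1-colour arrays, 2 mLN and 2 pLN, numbered by experiment in the labels. Agilent Feature Extraction 9.5.3.1 gave the deposited spot intensity, as named in the headers. Per the file headers it subtracted a spatial trend, removed a multiplicative one and put surrogate values in low spots. A deposited value table, also of intensity on a linear scale, served as an alternative; its scaling is not stated in the labels. All arrays share 1 slide and scan, so neither could be fitted as a batch.

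Control and outlier spots were left out, spots of a probe averaged, log2 taken and each array's 75th percentile subtracted. A probe entered if well above background on both arrays of a node (31883 probes), and a gene was its brightest entering probe (21386 genes, named through a RefSeq table). mLN was set against pLN with limma 3.58.1 (lmFit, eBayes) in R 4.3.3, with Benjamini-Hochberg adjustment over all genes and a threshold of 0.05. Values after ± are standard errors. An exact permutation of 2 against 2 arrays cannot go below p = 0.333, so moderated p-values rest on variance shared across genes. The scripts were tested on simulated data. Experiment numbers mark a shared experiment of both nodes; the difference between experiments in mLN correlated across genes with that in pLN at r = 0.247, and the experiment was also fitted as a block. Other alternatives were background correction, scaling, the filter on dim probes, the mean of probes, a variance trend and each array left out.

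The genes, lists and tests were chosen with earlier results of these data known. Values on every array are given for genes with an unadjusted p below 0.05, for the 2 most negative and 2 most positive genes of each role, and for genes whose entering probes differ in sign. From the pathway lists, genes that passed and the 3 highest and 3 lowest with the same sign in both experiments were named; other genes named from those and the marker lists were chosen after their values were seen, and their values under the alternatives were computed afterwards, as were list sums without the brightest gene.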

Additional observations from a re-analysis of the deposited data

How the results depend on the processing

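The pan-endothelial median was −0.46 and kept its sign under every alternative other than centring on that median, where it was not read. It was −0.75 with the normexp background and −0.51 to −0.31 with 1 array left out, the last without mLN replicate 2. Normexp moved the median of all genes to 0.38, against −0.03, and that of the 36 genes to −0.71, against −0.45. These moves went in opposite directions, so normexp did not shift all genes alike and the all-gene median is no baseline for the 36. The arterial median of −0.18 was −0.32 without pLN replicate 1, −0.11 without mLN replicate 2 or pLN replicate 2, −0.38 with normexp and 0.23 when centred on the pan-endothelial median. The tip cell median of −0.36 was −0.50 with normexp and 0.04 when centred. Calls over all genes numbered 222, but 0 with normexp (568 genes at an unadjusted p below 0.05, limma), 352 with median scaling, 44 without a filter on dim probes and 434 with a variance trend on intensity, and 0 to 188 with 1 array left out, 0 without either pLN array (1876 and 2295 genes unadjusted). The called endothelial genes were 0, and 1 with the intensity trend (Angpt2); with 1 array left out they numbered 0, with 4 to 14 at an unadjusted p below 0.05. Those fits leave 1 array in a node, assumed to vary like the other node, and say nothing about stability. With the experiment as a replicate block, 330 genes were called and none of the 36 (13 unadjusted). Foxf2 and 5 of 9 acinar genes passed only with it among these 2 fits, while Vegfd, Marco and 6 mesothelium genes passed in both. Centred on the pan-endothelial median, 1306 genes were called higher and 197 lower, against 164 and 58 in the reported fit, and the median of all genes was 0.37. Signs turned in 13 of 475 gene values. These were Vwf (−0.09) and Ly6c1 (−0.31) with normexp, Rasip1 (0.33) and Ly6c1 (−0.00) with the mean of probes, Esam (0.04) and Ly6c1 (−0.21) without mLN replicate 1, Robo4 (0.12), Ramp2 (0.04) and Hey1 (0.01) without mLN replicate 2, Hey1 (0.11) without pLN replicate 2, and Gja5 (0.26), Hey1 (0.36) and Sox17 (0.23) when centred. The mean of probes takes in the second probes of Rasip1 and Ly6c1, and centring moves all genes up alike, so those turns follow from the settings and say nothing about stability; for the others the cause was not tested. Nr2f2 was −0.16 with normexp, and Vegfa was −1.05 to 0.24 with 1 array left out, above 0 without mLN replicate 1. Leaving out 1 array moved 21 of the 36 gene values by over 1.5 times. Among them were ranges of −0.29 to 0.04 (Esam), −0.20 to 0.11 (Hey1), −0.21 to 0.34 (Ly6c1), −0.35 to 0.04 (Ramp2) and −0.24 to 0.12 (Robo4). Without mLN replicate 2 the median of the 36 genes was −0.30.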

Other observations

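Of the 5 probes that the array files name Ramp2, 4 are placed by the same files on chromosome 19, whereas the gene lies on chromosome 11. These 4 gave log2 differences of −0.46 to 0.87, and only the probe on chromosome 11, which was the brightest, stands for Ramp2 above.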
